A study of Mus musculus with 19 samples.

Results

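The genes described here are 10 heat shock proteins and chaperones of the mouse hippocampus, read in RNA taken 4 days after kainate or saline. They are Hspa1a, Hspa1b, Hspb1, Hsp90aa1, Hspa8, Dnajb1, Hsph1, Hspa5, Hspd1 and Hspa4. Each was found by its name in the gene symbols that the authors deposited. All 10 were found among 55416 genes counted, and all 10 passed the filter on low counts, which left 19234 genes to test.

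Molecular chaperones bind unfolded or partly folded proteins, keep them from aggregating and help them reach their native shape. The HSP70 proteins do this in cycles of ATP hydrolysis that J-domain proteins start and nucleotide exchange factors end, HSP90 takes over clients such as kinases and steroid receptors, and small heat shock proteins hold unfolded proteins without using ATP. When unfolded proteins build up in the cytosol, the heat shock factor HSF1 binds heat shock elements in the promoters of the inducible chaperones. A separate sensor system in the endoplasmic reticulum (ER) drives Hspa5 and other ER chaperones. In the brain, seizures are known to raise heat shock proteins in neurons and glia.

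The groups were 4 EZH2nHom kainate, 5 EZH2nHom saline, 5 WT kainate and 5 WT saline libraries, 19 in all, from mice on a C57BL6 background. EZH2nHom mice carried floxed alleles of EZH2, the methyltransferase of Polycomb repressive complex PRC2, on both chromosomes, together with the Synapsin1-Cre driver, which is active in neurons. WT mice had intact EZH2 and carried the same driver, Syn1Cre(+/-), so the driver is shared by all 4 groups. Kainate, an agonist of glutamate receptors, was given in repeated low doses until it brought on status epilepticus (SE), a prolonged seizure, and the other mice received saline by injection. Nothing in the labels states that replicates are separate mice, so the p-values measure the spread between these libraries.

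Total reads ran from 24496685 to 43948317 per library. Levels are CPM, read counts set relative to each library's size after TMM scaling. Ezh2 itself had 14.5 to 19.6 CPM in EZH2nHom kainate and 10.8 to 20.3 CPM in WT kainate libraries, and 11.8 to 15.5 CPM in EZH2nHom saline and 9.61 to 12.9 CPM in WT saline libraries. These counts cover the whole gene in all cell types, so they do not check the deletion, and the genotypes are those of the labels. Markers of neurons, astrocytes, microglia and oligodendrocytes were present in every library, which fits the labelled tissue. EZH2nHom kainate replicate 2 stood apart, with the lowest summed astrocyte markers of the kainate libraries (6509 CPM) and the lowest oligodendrocyte markers of all (3869 CPM). Genes with no symbol in the authors' table took 0.400% of its reads, against 0.0231% to 0.0777% in the other 18 libraries. Likewise WT kainate replicates 3 and 4 stood apart from the other 3 of their group in ER chaperones and microglial markers, as given below. EZH2nHom and WT libraries share no code prefix in their labels, so a difference between genotypes and one between prefixes cannot be told apart.

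The promoters are shown for the members whose windows hold a motif searched for, since these letters are what HSF1 and the ER stress factors are known to read. Windows of 250 bases before to 50 after a start site came from RefSeq (GRCm38.p6), where 8 of the 10 members had 11 windows. The heat shock element was searched as GAANNTTC and as TTCNNGAA, each its own reverse complement, and a longer form is an overlapping pair of these that share the middle GAA or TTC. The ER stress element was searched on both strands as CCAAT, any 9 bases, then CCACG. Of 32851 windows over all genes, 7.86% hold GAANNTTC, 8.52% TTCNNGAA, 15.1% either of these, 0.603% the longer form and 0.119% the ER stress element. In the lines here, capitals mark the heat shock element letters, and in Hspa5 the ER stress element. The windows are chr5:135887669-135887968 (plus strand) for Hspb1, chr5:149636266-149636565 (minus) for Hsph1, chr17:34972107-34972406 (minus) for Hspa1a and chr17:34959189-34959488 (minus) for Hspa1b. For Hspd1 the window is chr1:55087883-55088182 (minus) and for Hspa5 chr2:34771840-34772139 (plus), all in GRCm38.p6.
Hspb1: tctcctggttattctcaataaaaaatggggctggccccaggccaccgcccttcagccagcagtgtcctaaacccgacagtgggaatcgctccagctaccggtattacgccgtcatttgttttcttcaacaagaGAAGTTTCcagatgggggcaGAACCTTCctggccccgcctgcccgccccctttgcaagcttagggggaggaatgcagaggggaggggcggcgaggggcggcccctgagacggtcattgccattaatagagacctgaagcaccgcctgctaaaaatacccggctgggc
Hsph1: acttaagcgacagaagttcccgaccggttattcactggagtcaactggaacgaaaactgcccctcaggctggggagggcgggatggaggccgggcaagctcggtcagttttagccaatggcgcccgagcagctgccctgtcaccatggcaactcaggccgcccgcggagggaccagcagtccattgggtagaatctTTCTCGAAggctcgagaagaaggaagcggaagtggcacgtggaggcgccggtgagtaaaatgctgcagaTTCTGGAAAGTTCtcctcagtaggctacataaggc
Hspa1a: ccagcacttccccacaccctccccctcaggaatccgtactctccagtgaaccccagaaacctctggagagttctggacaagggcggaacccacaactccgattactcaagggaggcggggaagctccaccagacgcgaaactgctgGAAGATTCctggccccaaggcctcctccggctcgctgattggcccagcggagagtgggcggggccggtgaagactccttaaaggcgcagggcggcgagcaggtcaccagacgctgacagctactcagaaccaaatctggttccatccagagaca
Hspa1b: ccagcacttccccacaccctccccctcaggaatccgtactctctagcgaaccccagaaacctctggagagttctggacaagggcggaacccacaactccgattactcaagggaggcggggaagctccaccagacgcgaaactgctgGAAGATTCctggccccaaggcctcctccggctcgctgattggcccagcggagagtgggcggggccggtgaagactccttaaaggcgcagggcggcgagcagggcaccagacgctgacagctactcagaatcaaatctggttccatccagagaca
Hspd1: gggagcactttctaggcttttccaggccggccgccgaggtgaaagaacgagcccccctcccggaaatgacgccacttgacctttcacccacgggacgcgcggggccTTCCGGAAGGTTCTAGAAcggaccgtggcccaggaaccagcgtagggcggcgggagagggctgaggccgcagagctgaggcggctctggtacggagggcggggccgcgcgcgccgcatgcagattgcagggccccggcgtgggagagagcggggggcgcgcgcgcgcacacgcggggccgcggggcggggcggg
Hspa5: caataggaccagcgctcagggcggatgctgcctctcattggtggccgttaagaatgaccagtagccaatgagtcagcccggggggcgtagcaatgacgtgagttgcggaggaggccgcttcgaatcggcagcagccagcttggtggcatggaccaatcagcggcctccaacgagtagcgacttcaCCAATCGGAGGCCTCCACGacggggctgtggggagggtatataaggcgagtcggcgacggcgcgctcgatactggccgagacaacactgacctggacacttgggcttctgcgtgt

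Hspb1 has 2 matches to GAANNTTC, which begin 117 and 97 bases before the start site. Hspd1 holds the longer form in 2 overlapping copies, while its second window in that table, chr1:55088194-55088493, holds none of these motifs. Hsph1 holds the longer form once, just after the start site, beside a separate TTCNNGAA. Hspa1a and Hspa1b each have 1 match, and their windows differ at 4 of 300 bases. Hspa5 has the ER stress element beginning 65 bases before its start site and no heat shock element letters. The windows of Dnajb1 and Hspa4 hold none of these motifs, and no window was given for Hsp90aa1 or Hspa8. A match is a run of letters, not a measured binding site.

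Per kilobase of exon, the cytosolic chaperones Hspa8 and Hsp90aa1 led in every group. Hspa8 averaged 544 CPM per kb in EZH2nHom kainate, 624 in EZH2nHom saline, 508 in WT kainate and 462 in WT saline libraries, and Hsp90aa1 came next in each group, with 348, 412, 319.8 and 313 CPM per kb in the same order of groups. The organelle chaperones Hspd1 and Hspa5 held ranks 3 and 4, in either order, and Hspa4 rank 5. The inducible HSP70 genes were at the bottom in all groups, Hspa1a at 0.806 to 1.26 and Hspa1b at 0.883 to 1.47 CPM per kb. Hspb1 changed place: it ranked 8 in EZH2nHom saline (1.61 CPM per kb) and WT saline libraries (1.99), 8 in WT kainate libraries (8.65) and 6 in EZH2nHom kainate libraries (35.5), the last mean being carried by replicate 2 alone.

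**Figure D1:**
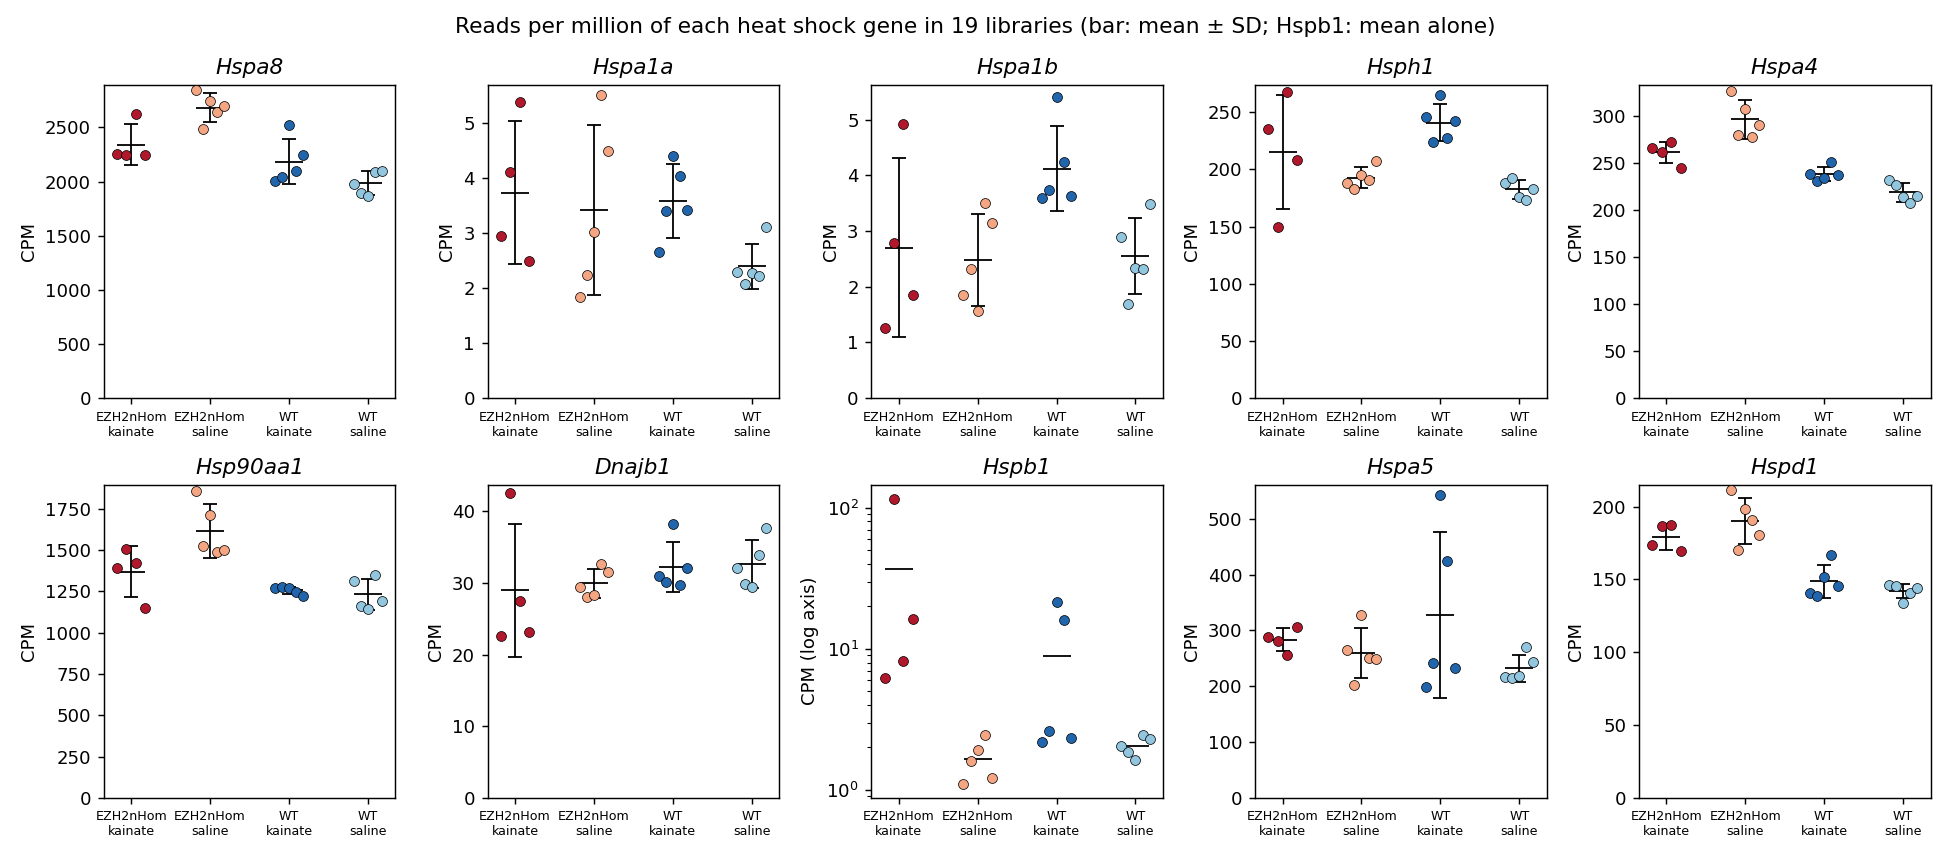
Level of each of the 10 genes in CPM (y axis, linear from 0 except a log axis for Hspb1) in every library, by group (x axis); points are libraries and bars the mean ± SD, or the mean alone for Hspb1. Hspb1 spans 1.11 to 115 CPM, while Hspa4, Hspd1, Hspa8 and Hsp90aa1 sit higher in EZH2nHom saline than in WT saline libraries without overlap.

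The contrasts were fitted together and tested with edgeR's quasi-likelihood test, two-sided, with Benjamini-Hochberg adjustment over the 19234 genes. A gene is called at an adjusted p under 0.05, and changes are log2 fold changes ± SE. After kainate in EZH2nHom hippocampi, Hspb1 rose, Hspa4 fell and the other 8 members were not called, where 26.1% of all genes tested were called, 14.3% higher and 11.8% lower. After kainate in WT hippocampi, Hsph1 rose and 9 members were not called, against 12% of all genes called, 9.47% higher and 2.57% lower. Hspd1 alone was higher in EZH2nHom than in WT after kainate, against 7.61% of all genes, 4.56% higher and 3.04% lower. After saline, 4 members were higher in EZH2nHom than in WT (Hspa4, Hspd1, Hspa8 and Hsp90aa1) and 0 lower, where 13.5% of all genes were called, 8.33% higher and 5.16% lower. That last split of all genes, 1603 higher and 993 lower, rested on single libraries: it was 822 and 853 without WT saline replicate 3 and 1226 and 1494 without EZH2nHom kainate replicate 1, and lower calls outnumbered higher ones in 7 of 19 fits that left out 1 library. The libraries of the 2 groups did not overlap for 2 members after kainate in EZH2nHom (19.2% of all genes), 2 in WT (14.4%), 1 between genotypes after kainate (7.26%) and 4 after saline (21.3%). In the first 3 contrasts the members' share of calls was at or near that of all genes.

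The median member change was 0.036 after kainate in EZH2nHom, against -0.016 over all genes tested, and 0.27 after kainate in WT, against -0.016 over all genes. Between genotypes it was 0.082 after kainate, against 0.0040 over all genes, and 0.27 after saline, against 0.017. The difference of the kainate responses between genotypes was called for 0 of 10 members and 0 of 19234 genes (0%) in edgeR, with 3 members and 1685 genes at an unadjusted p under 0.05, and DESeq2's Wald test called 12 genes, none of them a member. Those 3 members were Hspa4 at -0.31 ± 0.0897, Hspa8 at -0.33 ± 0.11 and Hsp90aa1 at -0.27 ± 0.12, with adjusted p-values of 0.439, 0.465 and 0.561 in edgeR. A response called in one genotype and not in the other is therefore not shown to differ between them.

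**Figure D2:**
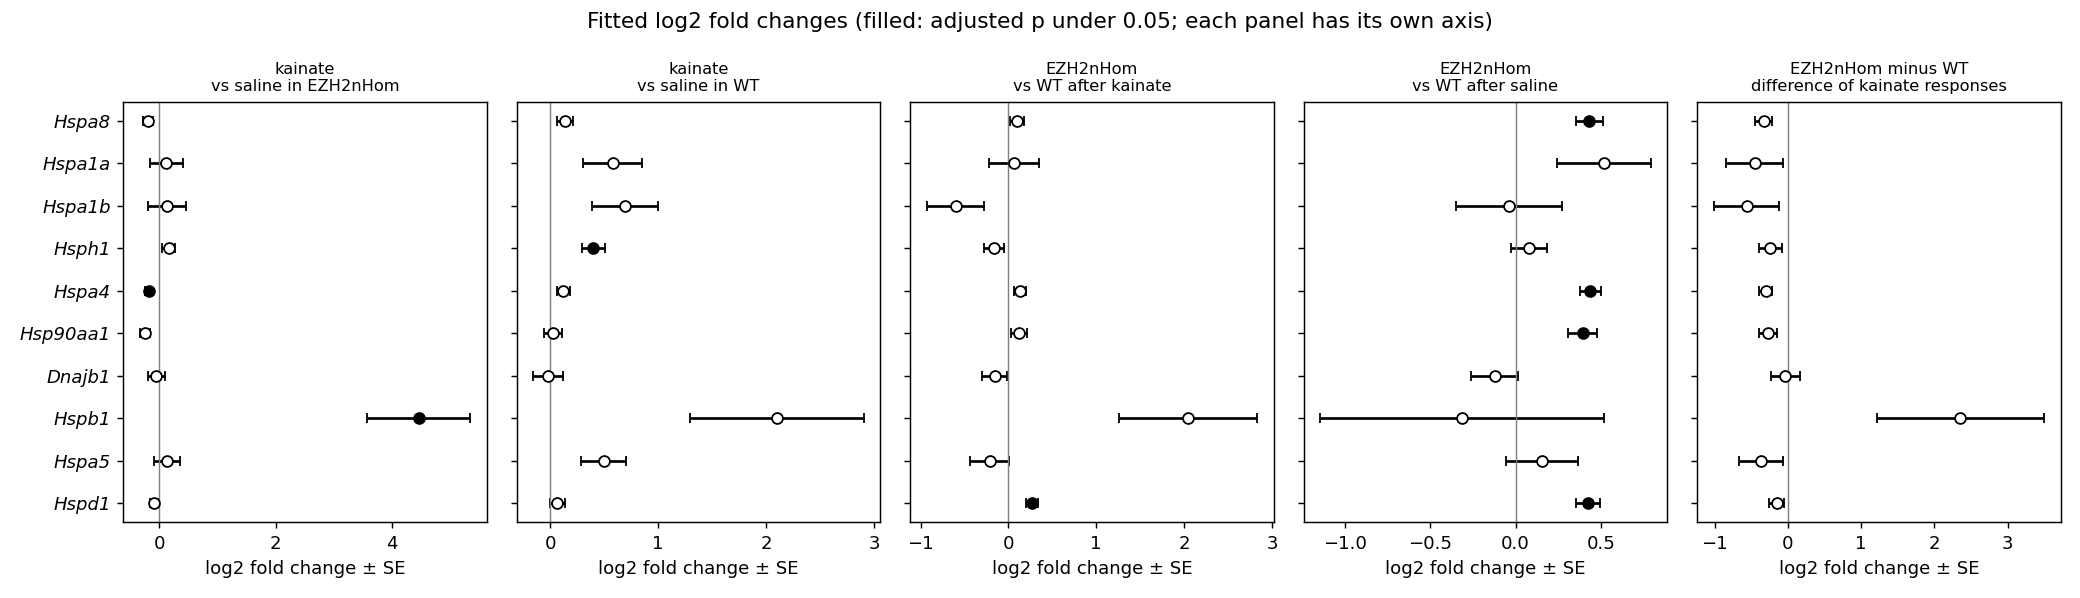
Fitted log2 fold change ± SE (x axis, a separate scale in each panel) of each member (y axis) in the 5 contrasts; filled points have an adjusted p under 0.05. The 4 filled points after saline lie between 0.39 and 0.44, and Hspb1 after kainate lies far to the right with a wide error.

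Hspb1 encodes HSP27 (HSP25 in mouse), a small heat shock protein that reactive astrocytes and vascular cells are known to make. In EZH2nHom libraries it had 6.25, 115, 8.27 and 16.2 CPM after kainate, against 1.11, 1.61, 1.93, 2.43 and 1.22 CPM after saline. WT libraries had 2.18, 2.63, 21.4, 16.1 and 2.32 CPM after kainate, against 2.06, 1.87, 1.62, 2.45 and 2.28 CPM after saline. Every EZH2nHom kainate library was above every EZH2nHom saline library, 1 of them by far, while in WT only replicates 3 and 4 were high and 2 of the other 3 lay within the saline range. The change was 4.45 ± 0.88 in EZH2nHom (21.9-fold; adjusted p = 0.00137, edgeR) and 2.10 ± 0.80 in WT (adjusted p = 0.105). Without EZH2nHom kainate replicate 2 the EZH2nHom change was 2.62 ± 0.64 and still called (adjusted p = 0.00577), and the WT change, with its estimate nearly the same, was then called as well (adjusted p = 0.0202). DESeq2's Wald test also called the WT change (adjusted p = 0.0377).

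Between genotypes Hspb1 was not called after kainate (2.04 ± 0.79; adjusted p = 0.121), and without EZH2nHom kainate replicate 2 that difference was 0.21 ± 0.62. The difference of its kainate responses was 2.35 ± 1.14 (adjusted p = 0.574), and 0.52 ± 0.87 without that library. A processed pseudogene, Hsp25-ps1, shares 52.1% of the 32-base words of Hspb1, so the authors' counting could split reads between the 2 genes. The same limit holds for Hsp90aa1, Hspa8 and Hspd1, which share 51.1%, 43.3% and 49.4% of their words with other gene models.

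Markers of other cells moved with the kainate libraries. Of 10 microglial markers, 9 rose in EZH2nHom and 10 in WT, and their summed level was 1241 to 2494 CPM in EZH2nHom kainate against 356 to 401 CPM in EZH2nHom saline libraries, and 792 to 2438 CPM in WT kainate against 416 to 466 CPM in WT saline libraries. Of 10 astrocyte markers, 6 rose in EZH2nHom and 4 in WT, with sums of 6509 to 10802 CPM in EZH2nHom kainate against 4862 to 5451 CPM in EZH2nHom saline libraries, and 8792 to 10918 CPM in WT kainate against 6108 to 6781 CPM in WT saline libraries. Endothelial and choroid plexus markers gave 0 calls of 10 in either genotype. All 10 fitted changes of the choroid plexus markers were negative in EZH2nHom (median -2.79) and 9 in WT (median -1.24), with sums of 23.2 to 705 CPM in EZH2nHom kainate against 51.5 to 3781 CPM in EZH2nHom saline libraries, and 49.9 to 1185 CPM in WT kainate against 29.1 to 4034 CPM in WT saline libraries, which overlapped widely. Of the others, 5 of 10 oligodendrocyte markers fell in EZH2nHom and 1 rose in WT, 2 of 10 mural cell markers rose in EZH2nHom and 1 in WT with 1 lower in each, and 6 of 7 red blood cell markers rose in WT and 0 in EZH2nHom. None of the microglial, astrocyte or endothelial markers was at 0 reads in any library. In bulk tissue, fewer cells of a type and less RNA per cell cannot be told apart, and the part of these cells in the Hspb1 change was not tested. EZH2nHom kainate replicate 2, the library with the highest Hspb1, had the lowest microglial sum of its group (1241 CPM). Replicate 4 of that group, next in Hspb1, had the highest (2494 CPM). WT kainate replicates 3 and 4, high in Hspb1, had the highest microglial sums of their group (1716 and 2438 CPM).

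Over the 19 libraries, the genes most like Hspb1 in log2 CPM were Ccn1 and Msr1 (Pearson r = 0.98 each) and Hbegf (0.97). Ccn1 encodes a matrix-associated growth regulator, Msr1 a macrophage scavenger receptor and Hbegf a growth factor that binds the EGF receptor. With the group means removed, r was 0.96, 0.95 and 0.95 for Ccn1, Msr1 and Hbegf. The points share library depth and scaling, and EZH2nHom kainate replicate 2 lies far out in Hspb1, so these are descriptions only.

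The other small heat shock genes give the setting of Hspb1. Of 10 small heat shock genes looked for, 6 passed the filter, Hspb1 included. Of these 5 rose in EZH2nHom and 3 in WT after kainate, where 14.3% and 9.47% of all genes rose in those contrasts. Hspb1 aside, 4 of 5 rose in EZH2nHom and 3 of 5 in WT. Hspb8, a partner of Bag3 in clearing misfolded proteins, had 42.8, 52.6, 43.3 and 53 CPM in EZH2nHom kainate against 20.6, 15.5, 19.9, 21.5 and 11.4 CPM in EZH2nHom saline libraries. It had 31.2, 35.5, 37.7, 43.5 and 36.2 CPM in WT kainate against 16.9, 14.5, 16.7, 21.3 and 15.8 CPM in WT saline libraries. Kainate and saline libraries of Hspb8 did not overlap in either genotype, and the changes were 1.43 ± 0.16 in EZH2nHom and 1.11 ± 0.15 in WT (adjusted p = 7.45e-06 and 0.000128, edgeR).

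Hspb6 rose by 2.06 ± 0.34 in EZH2nHom and by 2.46 ± 0.34 in WT, and Hspb3 by 2.07 ± 0.36 and 1.38 ± 0.34, though Hspb3 stayed under 2 CPM in every library. Cryab, the αB-crystallin of glia, rose in EZH2nHom (0.61 ± 0.21; adjusted p = 0.0381) and was 0.34 ± 0.20 in WT (adjusted p = 0.314). Its highest value, 171 CPM, lay in the library that was highest in Hspb1, EZH2nHom kainate replicate 2, without which the change was 0.29. The Cryab call was lost without that library, without EZH2nHom kainate replicate 4 or without any one of the 5 EZH2nHom saline libraries (adjusted p of 0.0518 to 0.227). Without EZH2nHom kainate replicate 2, 4 small heat shock genes, Hspb1 among them, rose in each genotype. The median over the 6 genes, Hspb1 included, was 1.74 after kainate in EZH2nHom and 1.24 in WT.

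Bag3, an exchange factor for HSP70 that binds Hspb8, also rose, by 1.48 ± 0.25 in EZH2nHom (adjusted p = 0.0002603) and by 0.76 ± 0.23 in WT (adjusted p = 0.0398, edgeR). The WT call was lost without any one of the 5 WT saline libraries or WT kainate replicate 2, 3 or 4 (adjusted p of 0.0541 to 0.159). Of the 26 nucleotide exchange factors and HSP90 cochaperones tested, it was the only one called in WT after kainate. In EZH2nHom 3 rose and 6 fell, among them the HSP70-HSP90 adaptor Stip1 (-0.34 ± 0.077) and the cyclophilin Ppid (-0.45 ± 0.083), against 14.3% of all genes higher and 11.8% lower. Only 1 of them rose without EZH2nHom saline replicate 2 or EZH2nHom kainate replicate 2. After saline 5 of the 26 were higher in EZH2nHom than in WT, against 8.33% of all genes. Ppid (0.68 ± 0.078) and the HSP70 partner St13 (0.30 ± 0.0598) were among them. The count was 3 without WT saline replicate 2, 3 or 4 or WT kainate replicate 2. It was 8 without EZH2nHom kainate replicate 2, where the number higher over all genes went from 1603 to 2624.

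**Figure D3:**
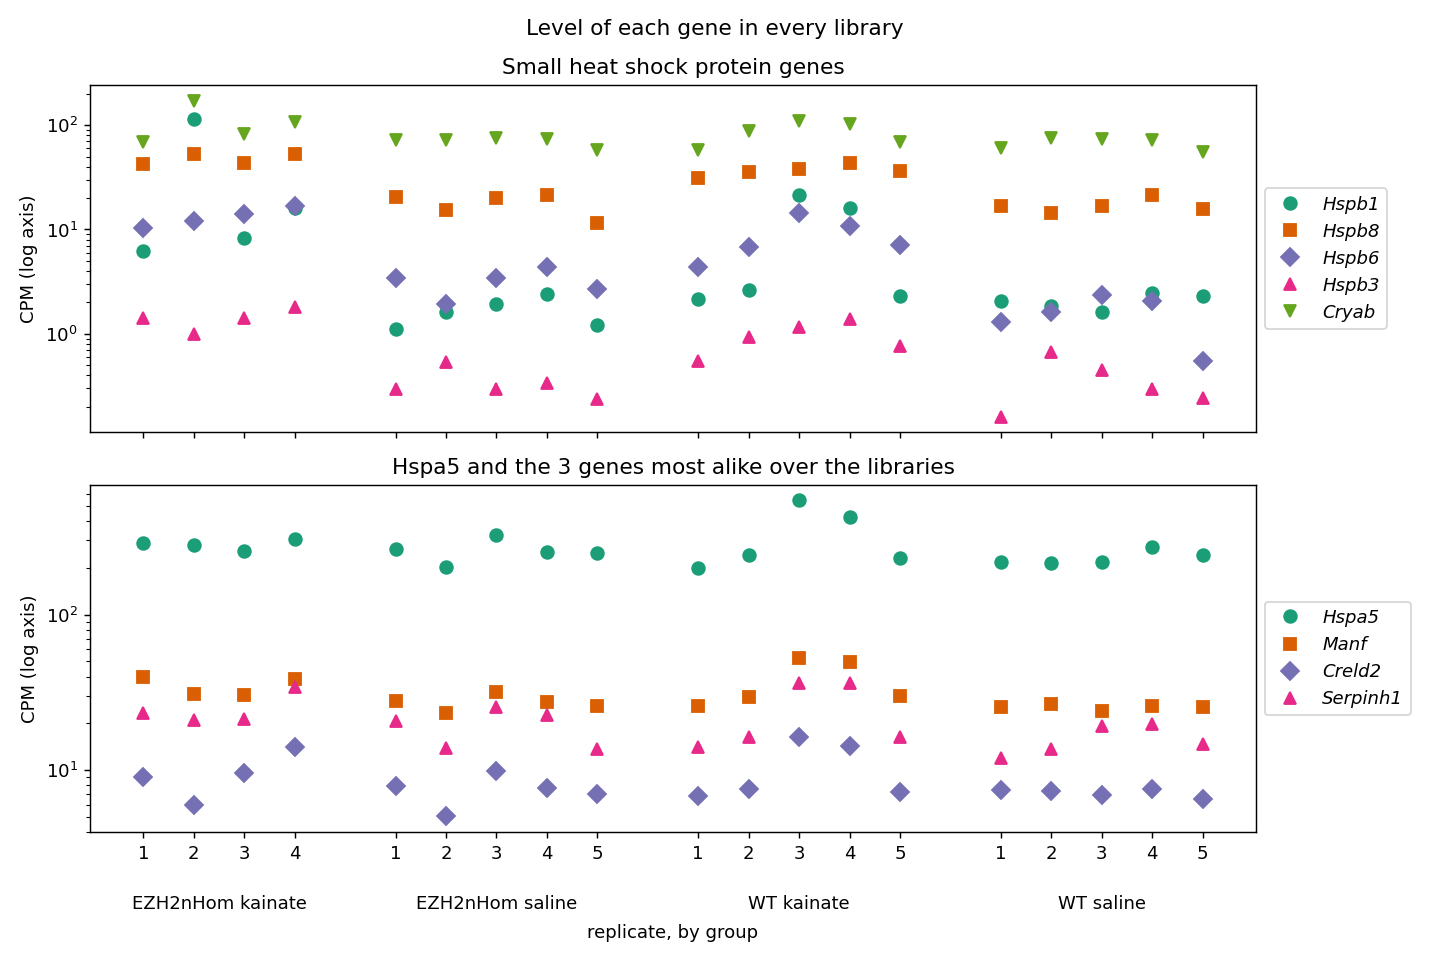
CPM on a log axis (y) in every library, ordered by group and replicate (x), for 5 small heat shock genes (top) and for Hspa5 with the 3 genes most like it (bottom). Hspb8 and Hspb6 are higher in every kainate library than in the saline libraries of the same genotype; Hspb1 and the ER genes are high in WT kainate replicates 3 and 4 and not in the other 3 of that group.

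Hsph1 encodes HSP110 (HSP105), an exchange factor for HSP70 that helps take aggregates apart. In EZH2nHom libraries it had 236, 149.6, 268 and 208 CPM after kainate, against 189, 183, 195, 190.4 and 207 CPM after saline. In WT libraries it had 246, 224, 265, 228 and 242 CPM after kainate, against 188, 192, 176, 173 and 183 CPM after saline. The WT groups did not overlap, and 3 of 4 EZH2nHom kainate libraries lay above every EZH2nHom saline library while replicate 2 lay below them all. The rise in WT was 0.40 ± 0.11 (1.32-fold; adjusted p = 0.0179, edgeR). Its call was lost when WT kainate replicate 3 was left out (adjusted p = 0.0704), and likewise for WT saline replicate 3 (0.0582) or WT saline replicate 4 (0.0586), the change being 0.36 or more in each. With the share of structural RNA as a covariate it was 0.35 ± 0.13 (adjusted p = 0.175, edgeR). That share was 0.0412% to 0.170% of reads in WT kainate and 0.0280% to 0.0559% in WT saline libraries. The covariate thus went largely with treatment, and the 2 cannot be well separated.

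In EZH2nHom the Hsph1 change was 0.16 ± 0.11 (adjusted p = 0.316), and without kainate replicate 2 it was 0.30 ± 0.077 and called (adjusted p = 0.00712, edgeR). The difference of the responses was -0.24 ± 0.16 (95% interval -0.57 to 0.084; adjusted p = 0.665). Hsph1 shares no 32-base word with another gene model. Its nearest genes over the 19 libraries were Gm48678, Neu4 and Pdk1 (r = 0.89, 0.89 and 0.88), of which Neu4 is a sialidase and Pdk1 a kinase of pyruvate dehydrogenase.

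Hspa4 encodes a second HSP110-type protein, APG-2, made without stress. In EZH2nHom libraries it had 266, 262, 272 and 245 CPM after kainate, against 327, 279.9, 308, 278 and 291 CPM after saline. WT libraries had 238, 231, 234, 251 and 238 CPM after kainate, against 232, 227, 214, 207 and 215 CPM after saline. EZH2nHom kainate lay just below EZH2nHom saline without overlap, and every EZH2nHom saline library lay above every WT saline library. The fall in EZH2nHom was -0.18 ± 0.065 (adjusted p = 0.0445, edgeR), close to the threshold: 10 of 28 alternative fits called it. Among the fits that left out 1 library, the call was lost without any one of the 5 WT saline libraries (adjusted p of 0.135 to 0.147), WT kainate replicate 1, 2, 3 or 5, EZH2nHom saline replicate 1, 3 or 5, or EZH2nHom kainate replicate 1 or 4.

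After saline, Hspa4 was higher in EZH2nHom than in WT by 0.44 ± 0.062 (1.35-fold; adjusted p = 0.000113, edgeR), called in 28 of 28 alternative fits. After kainate the genotype difference was 0.13 ± 0.065 (adjusted p = 0.221). Its level over the 19 libraries went most closely with that of the cohesin gene Smc1a, of Tmem184c and of Cfdp1 (r = 0.95, 0.95 and 0.94).

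Hspa8 encodes HSC70, the constitutive HSP70 of the cytosol, which also uncoats clathrin vesicles at synapses. EZH2nHom libraries had 2254, 2247, 2624 and 2242 CPM after kainate, against 2844, 2481, 2741, 2645 and 2699 CPM after saline. WT libraries had 2009, 2046, 2521, 2098 and 2242 CPM after kainate, against 1981, 1892, 1871, 2089 and 2102 CPM after saline. All 5 EZH2nHom saline libraries were above all 5 WT saline libraries, whereas the kainate libraries of the genotypes overlapped. The genotype difference after saline was 0.43 ± 0.077 (1.35-fold; adjusted p = 0.000896, edgeR) and after kainate 0.10 ± 0.081 (adjusted p = 0.483). Kainate against saline was -0.20 ± 0.081 in EZH2nHom (adjusted p = 0.083), where 3 kainate libraries lay below every saline library and replicate 3 among them. Without that replicate the change was -0.26 ± 0.085 and called (adjusted p = 0.0317). The Hspa8 gene overlaps the small RNA genes Snord14c, Snord14d and Snord14e on the same strand, and their part in its counts was not tested.

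The inducible HSP70 genes Hspa1a and Hspa1b lie side by side on chromosome 17 and encode nearly the same protein. They share 63.5% and 67.3% of their 32-base words with each other, so the split of reads between them is uncertain and their sum is the safer value. Summed, they had 4.19, 6.898, 10.3 and 4.34 CPM in EZH2nHom kainate against 3.68, 4.55, 4.59, 9.004 and 7.64 CPM in EZH2nHom saline libraries. In WT the sums were 6.24, 7.14, 9.797, 8.28 and 7.03 CPM after kainate against 5.19, 3.76, 4.61, 4.53 and 6.605 CPM after saline. The WT kainate values ran higher but their lowest overlapped the highest saline value, and in EZH2nHom both groups spread over the same range. The summed change was 0.64 ± 0.26 in WT (adjusted p = 0.132, edgeR) and 0.13 ± 0.28 in EZH2nHom (adjusted p = 0.777).

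Taken alone after kainate in WT, Hspa1a was 0.58 ± 0.27 (adjusted p = 0.194) and Hspa1b 0.69 ± 0.31 (adjusted p = 0.163, edgeR), and only Hspa1b had WT kainate libraries all above WT saline. A fit to the 2 WT groups alone called both (adjusted p = 0.0393 and 0.0377). After kainate Hspa1b was -0.60 ± 0.32 between genotypes (adjusted p = 0.271), and without EZH2nHom kainate replicate 3 it was -1.08 ± 0.31 and called (adjusted p = 0.0385). Each gene rested on 50 to 233 reads per library in these groups.

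Dnajb1 encodes HSP40, the stress-inducible J-domain partner of HSP70. EZH2nHom libraries had 22.7, 42.6, 27.4 and 23.1 CPM after kainate, against 29.4, 28.02, 28.3, 32.7 and 31.5 CPM after saline. WT libraries had 30.9, 30.2, 38.2, 29.7 and 32.03 CPM after kainate, against 32.1, 29.9, 29.4, 33.9 and 37.7 CPM after saline. The groups overlapped in all 4 comparisons, and the kainate changes were -0.052 ± 0.15 in EZH2nHom and -0.018 ± 0.14 in WT, with 95% intervals of -0.36 to 0.25 and -0.30 to 0.27. In EZH2nHom kainate, replicate 2 was above all 18 other libraries and the other 3 were below every EZH2nHom saline library. Without replicate 2, Dnajb1 was lower in EZH2nHom after kainate than after saline (-0.30 ± 0.099; adjusted p = 0.02996, edgeR) and lower than in WT after kainate (-0.40 ± 0.0997; adjusted p = 0.0221).

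Of 40 J-domain genes tested, Dnajb1 included, 1 rose and 8 fell in EZH2nHom after kainate, against 14.3% of all genes higher and 11.8% lower, and none was called in WT after kainate (12% of all genes called). The falls included Dnajc15 of mitochondria (-0.53 ± 0.10) and Dnajc27 (-0.75 ± 0.16). Without EZH2nHom kainate replicate 2 the number that fell was 17, while falls over all genes went from 2266 to 3102. After saline 13 of the 40 were higher in EZH2nHom than in WT and 0 lower, against 8.33% and 5.16% of all genes. Those higher were led by Dnajc2, a ribosome-associated chaperone (0.84 ± 0.071), and Dnajc8, a splicing-associated protein (0.84 ± 0.095). The count of 13 was 7 without WT saline replicate 2 or 4 and 5 without WT saline replicate 3. After kainate 6 of the 40 were higher in EZH2nHom than in WT and 1 lower, against 4.56% and 3.04% of all genes. Dnajc2 (0.50 ± 0.075) and Dnajc8 (0.63 ± 0.0995) were again among those higher.

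Hsp90aa1 encodes the inducible cytosolic HSP90 alpha. In EZH2nHom libraries it had 1394, 1509.8, 1423 and 1149 CPM after kainate, against 1860.3, 1527, 1716, 1488 and 1498 CPM after saline. WT libraries had 1269, 1276, 1268, 1248 and 1225 CPM after kainate, against 1312, 1163, 1143, 1349 and 1189.8 CPM after saline. The saline groups did not overlap, EZH2nHom being higher by 0.39 ± 0.084 (1.31-fold; adjusted p = 0.00369, edgeR), a call kept in 28 of 28 alternative fits. After kainate the genotypes overlapped and the difference was 0.12 ± 0.089 (adjusted p = 0.428). In EZH2nHom the kainate change of -0.24 ± 0.089 missed the threshold narrowly (adjusted p = 0.0524). It was called when EZH2nHom kainate replicate 2 (adjusted p = 0.02298), EZH2nHom saline replicate 4 (0.04396) or EZH2nHom saline replicate 5 (0.0475) was left out.

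Of the 4 HSP90 genes, Hsp90aa1 included, 3 were higher in EZH2nHom than in WT after saline, against 8.33% of all genes higher. Beside Hsp90aa1 these were Hsp90ab1 by 0.22 ± 0.065 and the ER form Hsp90b1 by 0.53 ± 0.15. The Hsp90ab1 call was lost without any one of the 5 WT saline libraries or WT kainate replicate 1, 2 or 3. It was also lost without EZH2nHom saline replicate 2, 4 or 5 or EZH2nHom kainate replicate 1 (adjusted p over these fits 0.0528 to 0.224, edgeR). The Hsp90b1 call was lost without WT saline replicate 1, 2, 3 or 5 or EZH2nHom saline replicate 1 or 3 (0.0586 to 0.0858). None of the 4 was called in the other contrasts. Without WT saline replicate 1, 2, 3 or 5 the saline count was 1. After kainate in EZH2nHom, 1 rose and 2 fell without EZH2nHom kainate replicate 2, and 1 fell without EZH2nHom saline replicate 4 or 5. In WT 1 rose without WT kainate replicate 1 or 5. The genes most like Hsp90aa1 were Anapc4, Dynlt3 and Srp54a (r = 0.94 each over 19 libraries), of which Srp54a is part of the signal recognition particle.

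Hspd1 encodes HSP60, the chaperonin of the mitochondrial matrix. EZH2nHom libraries had 173, 187, 187 and 169.7 CPM after kainate, against 211, 170.5, 199, 191 and 181 CPM after saline. WT libraries had 141, 138, 152, 167 and 146 CPM after kainate, against 146, 145, 134, 141 and 144 CPM after saline. EZH2nHom libraries were above WT libraries of the same treatment without overlap both times. The difference was 0.42 ± 0.069 after saline (1.34-fold; adjusted p = 0.000448) and 0.27 ± 0.073 after kainate (1.21-fold; adjusted p = 0.0311, edgeR). The saline call held in 28 of 28 alternative fits. The kainate call was lost when 1 of WT kainate replicates 1, 2 and 5 was left out (adjusted p = 0.0676, 0.0772 and 0.0614), or EZH2nHom kainate replicate 3 (0.0626). It was also lost with no filter on low counts (adjusted p = 0.06405), in a fit of only the groups compared (0.251) and with a replicate block (0.0979).

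Kainate against saline left Hspd1 at -0.087 ± 0.073 in EZH2nHom and 0.066 ± 0.069 in WT, with 95% intervals of -0.24 to 0.066 and -0.078 to 0.21. Its gene overlaps that of its co-chaperonin Hspe1 on the opposite strand, and the strand setting of the counting is not given in the sources used here, so reads from their shared stretch cannot be told apart. Hspe1 was higher in EZH2nHom than in WT after saline by 0.46 ± 0.096 (adjusted p = 0.003, edgeR). Of 16 mitochondrial chaperones and proteases, Hspd1 included, 6 were higher in EZH2nHom after saline and 0 lower (8.33% and 5.16% of all genes). Hspd1 aside, 5 of 15 were higher, the protease Lonp1 among them (0.36 ± 0.059). After kainate 3 were higher in EZH2nHom than in WT, Hspd1 among them, against 4.56% of all genes. That count was 1 without WT kainate replicate 1, 2 or 5. Kainate against saline gave 1 lower in EZH2nHom (4 lower without EZH2nHom kainate replicate 2) and none in WT. The genes most like Hspd1 were the HSP70-interacting St13 (r = 0.96), the mismatch repair gene Msh6 and Lyar (0.95 each).

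Among all pairs of members, Hspd1 and Hspa4 had the highest r over the 19 libraries (0.93). With group means removed their r was 0.73, below the 0.79 of Hspa1a and Hspa1b, which share much of their sequence. The genotype groups also differed in measures of the libraries. The TMM factors were 0.875 to 0.968 for EZH2nHom saline libraries, against 1.07 to 1.10 for WT saline libraries. Structural RNA (Rn7sk, Rmrp, Rpph1, Rn7s1 and Rn7s2) took 0.146% to 0.675% of reads in EZH2nHom saline and 0.0280% to 0.0559% in WT saline libraries. Neither measure overlapped between the saline groups. A covariate without overlap between the groups compared cannot tell structural RNA from genotype. With the structural RNA share as a covariate, Hspa4, Hspd1 and Hsp90aa1 were still called and Hspa8 was not (0.38 ± 0.12, adjusted p = 0.0629, edgeR).

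Summed neuronal markers were 6069 to 6739.8 CPM in EZH2nHom saline and 5429 to 5975 CPM in WT saline libraries, again without overlap, though 0 of the 10 markers was called in that contrast and none was at 0 in any library. After kainate 4 of the 10 fell in EZH2nHom and 1 in WT, with sums of 4190.0 to 5723 CPM in EZH2nHom kainate and 4064 to 6187 CPM in WT kainate libraries. Summed astrocyte markers were 4862 to 5451 CPM in EZH2nHom saline and 6108 to 6781 CPM in WT saline libraries, and summed microglial markers 356 to 401 CPM in EZH2nHom saline and 416 to 466 CPM in WT saline libraries, both lower in EZH2nHom without overlap. In that contrast 2 of 10 astrocyte markers were called lower, 2 of 10 oligodendrocyte markers higher and 0 of 10 microglial markers. The part of neurons, glia, scaling or structural RNA in the genotype differences was not tested. The structural RNA covariate cannot separate that share from genotype after saline.

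Hspa5 encodes BiP (GRP78), the HSP70 of the ER lumen and a sensor of unfolded proteins there. In EZH2nHom libraries it had 289, 282, 256 and 307 CPM after kainate, against 265, 202, 327, 251 and 249 CPM after saline. In WT libraries it had 198, 241, 543, 425 and 232 CPM after kainate, against 217, 215, 218, 271 and 243 CPM after saline. WT kainate replicates 3 and 4 were above all other 17 libraries, and the other 3 of that group lay below the highest saline library. The change in WT was 0.50 ± 0.21 (adjusted p = 0.143, edgeR), and without WT kainate replicate 1 it was 0.61 ± 0.19 and called (adjusted p = 0.0386). Without WT kainate replicate 3 it was 0.23 ± 0.17 (adjusted p = 0.511). In EZH2nHom it was 0.13 ± 0.22 (adjusted p = 0.706), and the genotype differences were not called.

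The genes most like Hspa5 over the 19 libraries were Manf, Serpinh1 and Creld2 (r = 0.91, 0.87 and 0.86, and 0.94, 0.87 and 0.83 with group means removed). Manf and Creld2 encode secreted proteins that ER stress is known to induce, and Serpinh1 the collagen chaperone HSP47. Manf had 25.8, 29.3, 52.5, 49.9 and 29.9 CPM in WT kainate against 25.4, 26.8, 24.2, 25.7 and 25.6 CPM in WT saline libraries, again highest in replicates 3 and 4. It rose by 0.55 ± 0.16 (adjusted p = 0.0323, edgeR), a call lost without replicate 3 or 4 of WT kainate or any one of the 5 WT saline libraries (adjusted p of 0.0572 to 0.123). The same 2 libraries had microglial sums of 1716 and 2438 CPM, against 792 to 1020.2 CPM in the other 3. Their endothelial sums were 215 and 212 CPM, against 129 to 159 CPM in the others, and their part in the ER values was not tested.

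Of 29 ER chaperone and unfolded protein response genes tested, 6 rose and 0 fell in WT after kainate, where 9.47% of all genes rose. They included the disulfide isomerases Pdia3 (0.63 ± 0.15) and P4hb (0.56 ± 0.15), and the degradation factor Edem1 (0.85 ± 0.21). The stress transcription factor Atf3 rose by 3.22 ± 0.61 in WT and by 3.33 ± 0.63 in EZH2nHom, and it also counts among the immediate early genes. Without WT kainate replicate 3, or without replicate 4, the WT count was 3 and P4hb was not called. The WT count was 10 without WT kainate replicate 1. With the structural RNA covariate, which went largely with treatment in WT, it was 0. In EZH2nHom 3 rose (Edem1, Atf3 and P4hb) and 1 fell, the glutathione-degrading Chac1 (-0.82 ± 0.26), whose call was lost without EZH2nHom saline replicate 4 or 5 or EZH2nHom kainate replicate 1, 2 or 4. Leaving out any one of the 5 WT saline libraries, WT kainate replicate 1, 2 or 3 or EZH2nHom kainate replicate 3 brought the number that rose in EZH2nHom to 5. Between genotypes after saline, 1 of the 29, Hsp90b1, was higher in EZH2nHom and 0 lower, against 8.33% and 5.16% of all genes.

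The rest of the chaperone system was read by the same lists. Of 25 genes known to be induced by HSF1, 8 of them members here, 5 rose and 3 fell in EZH2nHom after kainate and 4 rose in WT. Over all genes 14.3% rose and 11.8% fell in EZH2nHom and 9.47% rose in WT. Ier5, an immediate early gene that acts on HSF1, rose by 0.98 ± 0.16 in EZH2nHom and by 0.52 ± 0.15 in WT. The WT call of Ier5 was lost without WT kainate replicate 3 or 5 or any one of the 5 WT saline libraries (adjusted p of 0.0512 to 0.0992). The WT count of 4 was 1 without WT kainate replicate 3 or WT saline replicate 3 or 4. It was 2 without WT saline replicate 1, 2 or 5. Without EZH2nHom kainate replicate 2 the number that fell in EZH2nHom was 10, while falls over all genes went from 2266 to 3102. After saline, 10 of the 25 were higher in EZH2nHom than in WT and 1 lower, against 8.33% and 5.16% of all genes. Members aside, 7 of 17 were higher, with Cacybp (0.54 ± 0.099) and Stip1 (0.37 ± 0.072) among them. The count of 10 was 6 without WT saline replicate 2, 3 or 4.

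Among 8 heat shock factors and their regulators, none was called after kainate in either genotype, and Hsf1 itself was -0.14 ± 0.099 in EZH2nHom and -0.10 ± 0.094 in WT (adjusted p = 0.304 and 0.556, edgeR). Hsbp1, a small protein that binds HSF1, was higher in EZH2nHom than in WT after saline (0.53 ± 0.074) and after kainate (0.40 ± 0.078). It was the only 1 of the 8 called between genotypes, against 8.33% of all genes higher after saline and 4.56% after kainate. Over all genes 26.1% were called after kainate in EZH2nHom and 12% in WT. The TRiC chaperonin, which folds actin and tubulin, and its partner prefoldin had 0 of 14 genes called after kainate in either genotype. Without EZH2nHom kainate replicate 2, however, 4 fell after kainate in EZH2nHom, without EZH2nHom kainate replicate 1, 2 rose, and 1 rose without any one of the 5 WT saline libraries or WT kainate replicate 1, 2 or 3. After saline 4 of 14 were higher in EZH2nHom than in WT, against 8.33% of all genes. That count was at most 2 without any one of the 5 EZH2nHom saline or 5 WT saline libraries, WT kainate replicate 1, 2 or 3 or EZH2nHom kainate replicate 1, and 9 without EZH2nHom kainate replicate 2. Over the HSP70 and HSP110 family, 4 of 15 fell in EZH2nHom after kainate, against 11.8% of all genes, Hspa2 (-0.49 ± 0.11), Hspa4l (-0.34 ± 0.085) and Hspa12a (-0.67 ± 0.17) beside Hspa4, and 1, Hsph1, rose in WT. In EZH2nHom against WT after saline, 3 of the 15 were higher (8.33% of all genes). Members aside it was 1 of 9, Hspa2. The Hspa2 call was lost without WT saline replicate 1, 2, 3 or 4 or WT kainate replicate 2 or 3. Of 17 immediate early genes, 4 rose in EZH2nHom after kainate, against 14.3% of all genes, and in WT Atf3 rose and 1 other fell.

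**Figure D4:**
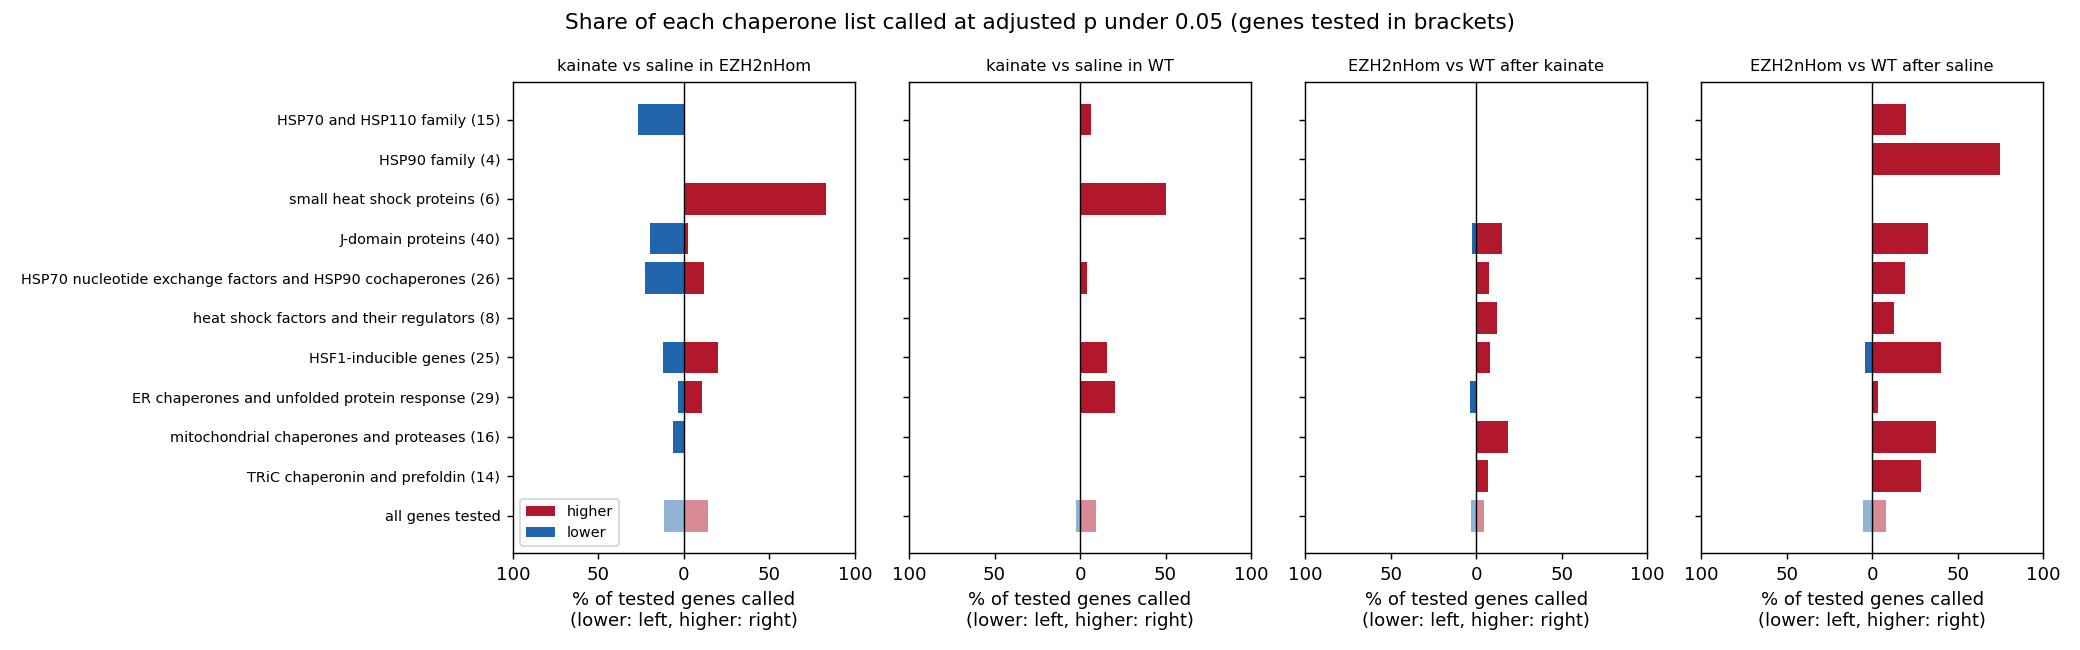
Percent of the tested genes of each chaperone list (y axis, number tested in brackets) called higher (right) or lower (left) at an adjusted p under 0.05, in 4 contrasts, with all 19234 genes in the bottom row. Of the small heat shock genes, Hspb1 included, 5 of 6 are higher after kainate in EZH2nHom and 3 of 6 in WT. After saline the bars of most other lists lie on the side of higher levels in EZH2nHom. Only 1 of 29 ER and unfolded protein response genes and 0 of 6 small heat shock genes were called higher there, against 8.33% of all genes.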

How the data were processed

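Raw whole-number read counts per gene were deposited by the authors as 1 table of 55416 genes in 19 libraries, with a second table of gene symbols. Libraries were made from ribosomal-RNA-depleted total RNA, per the labels' protocols. Per the submitters' processing notes the genome build is mm39 and DESeq and DESeq2 were used; aligner, counter and strand setting are not given in the sources used here.

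Genes were filtered with edgeR 4.0.16's filterByExpr (R 4.3.3) on the counts as deposited and scaled by TMM, and 1 quasi-likelihood model, with a mean for each of the 4 groups and 1 spread shared by them, took in all 19 libraries. The 5 contrasts were tested two-sided with Benjamini-Hochberg adjustment over 19234 genes. SE is the log2 fold change divided by the square root of F, and 95% intervals use the t distribution with the fit's degrees of freedom. The procedure was tested on simulated data. CPM per kb used exon length of the gene models. Likeness is Pearson's r of log2(CPM + 1). Depth varied less than 2-fold between libraries.

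Members and gene lists were chosen with earlier results of these data known. Besides the 10 members, the text names up to 4 called genes per list with the smallest adjusted p, 3 genes most like a member, and a few genes (Hsf1, Cryab, Manf, Chac1, St13, Bag3, P4hb) chosen after their values were seen. Replicate numbers were checked for pairing by r over genes between same-numbered libraries. It was positive in 5 of 5 WT kainate and saline pairs (0.189 to 0.479) and in all pairs between genotypes after saline (0.0950 to 0.576). It was not positive in all pairs of EZH2nHom kainate and saline (-0.0157 to 0.165 in 4 pairs) or between genotypes after kainate (-0.145 to 0.527). WT kainate replicates 1, 2, 4 and 5 and EZH2nHom kainate replicates 2, 3 and 4 were most like the same-numbered saline library of their genotype. WT kainate replicate 3 was most like WT saline replicate 4, and EZH2nHom kainate replicate 1 most like EZH2nHom saline replicate 2. Between genotypes the best match had the same number only for EZH2nHom kainate replicate 4 and EZH2nHom saline replicates 4 and 5. The numbers thus matched in part, are not shown to pair the libraries and were left out of the main fit. EZH2nHom kainate libraries go by their titles' numbers, 1 to 4; the count table's columns number them 2 to 5. Alternatives were DESeq2 1.42.0 size factors and Wald test, other filters, fits of only the groups compared, replicate and prefix blocks, covariates, and each library left out. Dnajb8 and Dusp1 were not analysed here.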

Additional observations from a re-analysis of the deposited data

Results flagged for a closer look

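Over the 10 genes and 4 groups, 40 sets of 4 or 5 libraries were examined for 1 library far from the rest (Dixon's test, 95% critical value), and 4 were found, where chance gives about 2.0. Hspb1 in EZH2nHom kainate replicate 2 was 115 CPM, against 6.25 to 16.2 CPM in the other 3 of that group. Hspa8 in EZH2nHom kainate replicate 3 was 2624 CPM, against 2242 to 2254 CPM in the other 3. Dnajb1 in WT kainate replicate 3 was 38.2 CPM, against 29.7 to 32.03 CPM in the other 4. Hspa1a in WT saline replicate 5 was 3.11 CPM, against 2.08 to 2.29 CPM in the other 4.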

How the results depend on the processing

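The saline genotype calls of Hspa4, Hspd1 and Hsp90aa1 and the EZH2nHom kainate call of Hspb1 held in 28 of 28 alternative fits each, and that of Hspa8 after saline in 27. Of 1440 member values under alternatives, 1358 kept direction and side of the threshold, 34 lost a call, 16 gained one and 32 changed sign. The number of members called after kainate in EZH2nHom (2) was 1 with DESeq2 size factors, no filter, only the groups compared or a threshold of 0.01, and 1 to 5 with single libraries left out (5 without EZH2nHom kainate replicate 2). In WT (1) it was 2 with DESeq2's Wald test, 3 with only the groups compared, 0 with structural RNA as a covariate, a threshold of 0.01 or shared code prefixes as a block, and 0 to 2 with single libraries left out. Between genotypes after kainate (1) it was 0 with no filter, only the groups compared or a threshold of 0.01, and 0 to 2 with single libraries left out. The cause was not tested. Over all genes, the structural RNA covariate called 557 genes in WT, against 2316, and 1686 between genotypes after saline, against 2596. With it the J-domain genes higher in EZH2nHom after saline were 7 (13 in the main fit), the HSF1-inducible genes 6 (10) and the mitochondrial genes 2 (6). The exchange factors and cochaperones higher were 3 (5), the TRiC and prefoldin genes 2 (4) and the HSP90 genes 1 (3). Then 1 J-domain gene and 2 exchange factors or cochaperones were lower (0 in the main fit). That covariate went largely with treatment in WT and with genotype after saline, so it cannot be told apart from them. The prefix block called 0 genes in WT, but it was fitted only to the 6 WT libraries whose prefix occurs in both treatments. A fit of 6 libraries has less power, so its 0 is not a like comparison with 2316. Fits of only the groups compared called 3066 in EZH2nHom (2131 higher, 935 lower), against 5012 (2746 and 2266). Between genotypes they called 4 after kainate, against 1463, and after saline 5604 (2891 higher, 2713 lower), against 2596 (1603 and 993). Also between genotypes after kainate, DESeq2's Wald test called 2214 and no filter 959. A threshold of 0.01 called 2815 in EZH2nHom and 1083 in WT, and 284 and 1212 between genotypes after kainate and saline. Single libraries left out gave 3864 to 6096 genes in EZH2nHom, 1365 to 3414 in WT, 670 to 2193 between genotypes after kainate, 1675 to 4295 after saline and 0 to 4 for the difference, the highest without EZH2nHom kainate replicate 2 except after kainate.

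With the replicate block, 735 genes (1463 without it) and 0 members were called between genotypes after kainate, Hspd1 being 0.26 ± 0.085 (adjusted p = 0.0979, edgeR). In EZH2nHom after kainate the block gave 2 members: Hspa4 was not called (-0.19 ± 0.074; adjusted p = 0.0875), Hsp90aa1 was (-0.27 ± 0.089; adjusted p = 0.0463), and Hspb1 was 3.28 ± 0.82 (adjusted p = 0.0178). The block changed no other member call, and in WT Hsph1 was the 1 member called. With the count table's own column numbers for EZH2nHom kainate, tried after seeing the data, same-numbered libraries did not all deviate together either (r = -0.109 to 0.216 with EZH2nHom saline, -0.402 to 0.308 with WT kainate). That block called 3950 genes and 1 member, Hspb1, in EZH2nHom after kainate, 200 genes and 0 members between genotypes after kainate, and 0 genes for the difference; Hspa1a was -0.014 and Hspa1b -0.070 in EZH2nHom, and Hspa1a -0.084 between genotypes after kainate, none of them called.

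Signs that changed belonged to values not called either way. With structural RNA as a covariate Dnajb1 was 0.0073 in WT after kainate, Hspa1a -0.15 between genotypes after kainate and 0.17 for the difference of responses, and after saline Hspa1a was -0.32, Hspa5 -0.074, Hspb1 0.096 and Hsph1 -0.0075. With Xist reads as a covariate Hspa5 was -0.011 after saline and Dnajb1 0.011 for the difference, and with prefixes as a block Dnajb1 was 0.0087 in WT. With single libraries left out, ranges crossed 0 for Dnajb1 (-0.28 to 0.11 for the difference, -0.30 to 0.081 in EZH2nHom, -0.089 to 0.033 in WT), Hsp90aa1 in WT (-0.0053 to 0.051), Hspa1a (-0.17 to 0.21 between genotypes after kainate, -0.11 to 0.36 in EZH2nHom), Hspa5 between genotypes after kainate (-0.34 to 0.046) and Hspa1b (-0.21 to 0.088 after saline, -0.345 to 0.41 in EZH2nHom).

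Leaving out EZH2nHom kainate replicate 2 or WT kainate replicates 3 and 4 for the list counts was chosen after seeing the data. Hspa1a and Hspa1b rested on 50 to 233 reads per library; the part of depth in their errors was not tested.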
